A study of Mus musculus with 4 samples.

Results

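The nuclear genes of the mitochondrial respiratory chain and ATP synthase were followed through 4 RNA sequencing libraries of mouse T cells. Members were all entries of the deposited gene table whose symbol begins with Nduf, Cox4 to Cox8, Uqcr or Atp5, together with Cyc1 and Cycs, which gave 90 of 22672 named genes. They comprised 36 subunits of complex I, 9 of complex III, 20 of complex IV, 15 of complex V (ATP synthase), cytochrome c, 7 complex I assembly factors (the Ndufaf genes) and 2 factors named after ATP synthase (Atp5s and Atp5sl). Ndufa4 and Ndufa4l2 carry complex I names and were placed with complex IV, where the Ndufa4 protein is now assigned.

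All 4 libraries came from splenic T cells of Pmel mice, whose transgenic T cell receptor recognises a peptide of the pigment cell protein gp100. The cells had been activated with 1 µg/ml of that peptide and 100 U/ml of interleukin-2 for 72 h, in both groups alike. The 2 control libraries were labelled wild type and the other 2 SphK1 -/-, that is, lacking sphingosine kinase 1, which makes the lipid mediator sphingosine-1-phosphate. The comparison asks how transcripts differ between these genotypes. The sources used here do not give the design of the SphK1 allele, the age of the mice, or whether libraries of 1 genotype came from separate or pooled animals, so p-values measure the spread between these libraries, which may be technical.

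Depth was 44277592 and 46449606 counts in the controls and 50538355 and 53640611 in the others. Sphk1 itself went against the labels, with 2 and 4 counts in the controls and 35 and 18 under the knockout label, and the groups are therefore named by their labels throughout. T cell markers summed to 4801 to 5300 CPM (counts relative to library size) in every library, and 0 of 10 tested passed the threshold, although 7 of the 10 lay lower in both libraries labelled knockout than in both controls (23.8% of all genes tested did so) and 7 were called lower with library totals as the scale. The first library labelled knockout stood apart in B cell markers, which summed to 393.3 CPM there against 185.7 to 198.6 CPM in the other 3, with Cd79a called higher among 7 tested. Macrophage and monocyte markers ran from 11.3 to 29.9 CPM (1 of 5 tested called higher, Cd68) and natural killer cell markers from 36.6 to 88.7 CPM (1 of 5, Klre1), again highest in that library and with Klra8 and Klra4 at 0. In both libraries labelled knockout, 3 of 5 tested macrophage and monocyte markers and 4 of 5 natural killer cell markers lay above both controls. This held for 1 of 7 B cell markers and 21.0% of all genes tested, and 0 of these markers lay below both controls. The Cd79a call was lost without either control and the Cd68 call without control 1 or knockout 1. With every library kept, Cd79a was not called by DESeq2, limma-voom or edgeR's robust fitting. Cd68 was not called by limma-voom, with robust fitting, DESeq2 size factors or library totals, or at a minimum count of 50. Of the natural killer cell sums, Eomes alone held 26.15 to 57.88 CPM. Whether these markers came from other cell types or from the T cells, and their part in the results, was not tested. Leaving that library out kept 15 of the 16 calls described here.

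Oxidative phosphorylation passes electrons from NADH through complex I, ubiquinone, complex III and cytochrome c to complex IV, which reduces oxygen. The proton gradient built on the way drives the rotary ATP synthase. Activated T cells build up mitochondria as they grow, and memory T cells are known for their reliance on this pathway. Many of the subunits have processed pseudogenes, intron-less copies of the message elsewhere in the genome. For each member, the share of 30-base words of its coding sequence that also occur in another, non-overlapping annotated gene was therefore computed from GENCODE M21 (GRCm38), and is called here the shared coding sequence.

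The following 4 sets of coding sequence show how near such copies come. The c subunit of the ATP synthase rotor is encoded by 3 genes, Atp5g1, Atp5g2 and Atp5g3, whose mature proteins are identical and whose import sequences differ. Atp5g2 (chr15:102662864-102672352, minus strand), Atp5g1 (chr11:96068852-96075670, minus strand) and Atp5g3 (chr2:73908447-73911326, minus strand) are shown over the last 90 coding bases before the stop codon, with capitals where a base differs from Atp5g2. Atp5g1 differed at 12 of these bases and Atp5g3 at 23.
Atp5g2: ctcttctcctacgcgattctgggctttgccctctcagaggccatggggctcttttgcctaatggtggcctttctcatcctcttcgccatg
Atp5g1: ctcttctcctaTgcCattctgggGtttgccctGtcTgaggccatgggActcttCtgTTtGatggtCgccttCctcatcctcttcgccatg
Atp5g3: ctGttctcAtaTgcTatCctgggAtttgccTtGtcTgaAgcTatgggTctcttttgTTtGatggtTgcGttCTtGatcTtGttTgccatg

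Although these 3 genes differ from one another, Atp5g2 and Atp5g1 each had copies elsewhere. The pseudogenes Gm10175 (chr7:23946646-23947290, minus strand) and Gm10231 (chr17:5816200-5816640, minus strand) each held 100% of the coding words of Atp5g2, and Gm10039 (chr11:100361716-100362126, minus strand) held 92.9% of those of Atp5g1. Atp5g3 shared 0%.

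Cytochrome c, the carrier between complexes III and IV, is encoded outside the testis by Cycs (chr6:50562563-50566538, minus strand). Gm10053 (chr19:24875686-24876631, plus strand) is identical to it over all 318 coding bases, and the pseudogene Gm13772 (chr2:90804260-90804576, minus strand) differs at 2 of 317. The first 90 coding bases of Cycs stand beside those of a more diverged pseudogene, Cycs-ps2 (chr5:101305578-101305869, plus strand), with the 3 bases that differ within this stretch in capitals. Over 292 coding bases, aligned without gaps, Cycs-ps2 differs from Cycs at 92. An inserted or lost base would make later bases count as differing, so this number can exceed that of substitutions.
Cycs: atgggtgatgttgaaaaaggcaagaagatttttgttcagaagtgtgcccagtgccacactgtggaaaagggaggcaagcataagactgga
Cycs-ps2: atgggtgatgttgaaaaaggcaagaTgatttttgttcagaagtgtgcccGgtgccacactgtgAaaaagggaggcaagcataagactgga

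Ndufs5 (chr4:123712710-123718202, minus strand), an accessory subunit of complex I, is shown because it was at 0 while a near-identical copy had counts. Over the aligned coding sequence, Ndufs5 and that pseudogene, BC002163 (chr16:42955631-42955949, plus strand), differ at 2 of 319 bases, and the capital marks the 1 difference within the first 90.
Ndufs5: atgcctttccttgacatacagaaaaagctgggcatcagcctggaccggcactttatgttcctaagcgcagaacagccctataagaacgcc
BC002163: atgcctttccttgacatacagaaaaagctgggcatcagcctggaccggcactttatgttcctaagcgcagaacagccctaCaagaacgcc

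Ndufs6 (chr13:73319838-73328542, minus strand), another accessory subunit of complex I, has a copy that has drifted further. It differs from its pseudogene Ndufs6b (chr7:81161397-81161744, minus strand) at 12 of 347 bases, of which the 7 within the first 90 are in capitals.
Ndufs6: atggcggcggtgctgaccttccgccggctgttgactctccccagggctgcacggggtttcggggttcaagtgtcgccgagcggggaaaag
Ndufs6b: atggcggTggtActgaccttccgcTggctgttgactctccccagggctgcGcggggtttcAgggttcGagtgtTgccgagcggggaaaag

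Of the 90 members, 85 passed the filter on low counts and were tested. In edgeR's quasi-likelihood test with Benjamini-Hochberg adjustment over all 12758 tested genes, 16 members were higher under the knockout label at an adjusted p under 0.05 and 0 were lower. Over all genes tested, 6.00% were called higher and 0.752% lower, against 18.8% of the tested members called higher. The median log2 fold change (knockout label over control) was 0.080 over the tested members and −0.021 over all genes. At an unadjusted p under 0.05, 3 further members were higher (Atp5o, Cox8a and Ndufb11) and 0 were lower. DESeq2 and limma-voom likewise called 0 members lower. With library totals as the scale, which moved the median over all genes from −0.021 to −0.26, 15 members were called higher and 9 lower. Libraries of the labels did not overlap in CPM for 33 members that were higher and 14 that were lower under the knockout label, beside 21.0% and 23.8% of all genes tested. In bulk RNA, fewer cells of a type and less RNA per cell cannot be told apart, and this holds for every level given here.

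The calls fell on a few subunits of each complex rather than on a complex as a whole. They took 4 of 35 tested subunits of complex I, 2 of 9 of complex III, 4 of 16 of complex IV, 5 of 15 of complex V and cytochrome c. None of the 7 assembly factors and neither ATP synthase-named factor passed the threshold. Median log2 fold changes were −0.029 for complex I, −0.13 for complex III, 0.19 for complex IV and 0.10 for complex V.

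**Figure D1:**
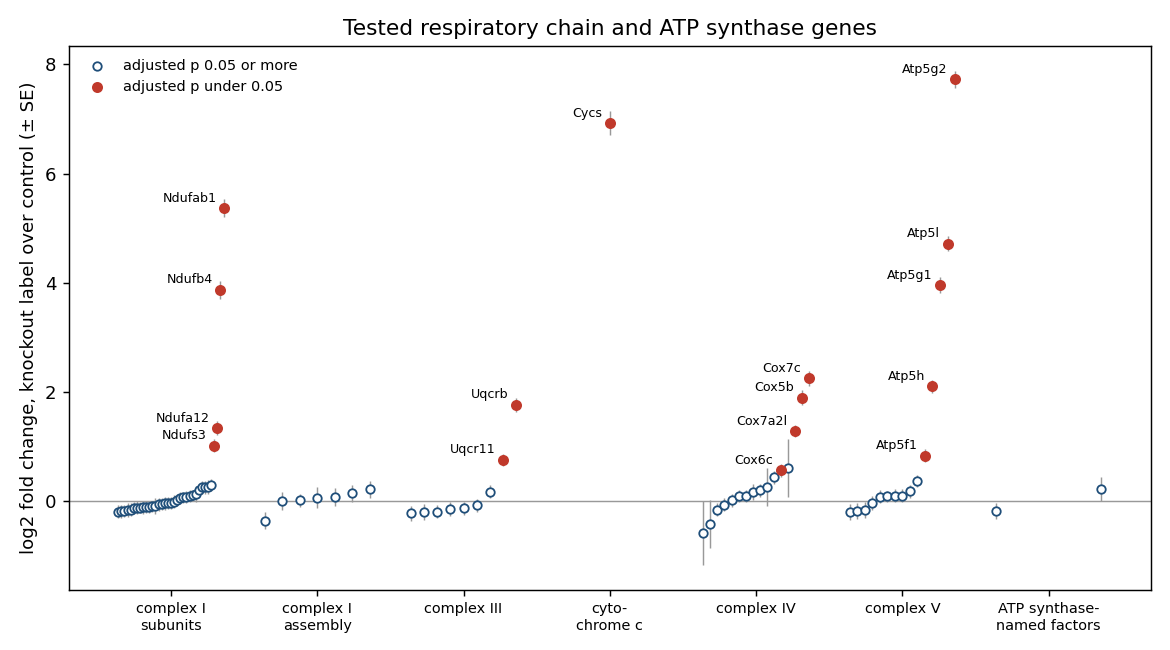
Log2 fold change of each tested member, knockout label over control, with SE bars, grouped by complex. Filled red points are the 16 members past the threshold, between 0.57 for Cox6c and 7.72 for Atp5g2, while the open points of every complex lie between −0.58 and 0.62.

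Within complex I, the called subunits were Ndufab1, Ndufb4, Ndufa12 and Ndufs3. Ndufab1, the mitochondrial acyl carrier protein that also sits in complex I, stood at 2.32 and 2.03 CPM in the controls and at 82.2 and 96.9 CPM under the knockout label, a log2 fold change of 5.36 ± 0.16 (SE, n = 2 per group; edgeR adjusted p = 1.09e-07). Ndufb4, an accessory subunit of the membrane arm, was at 3.62 and 3.09 CPM against 46.5 and 51.6 CPM (3.87 ± 0.16, edgeR adjusted p = 7.42e-07). For both genes the libraries of a label lay close together and far from those of the other.

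Ndufa12, an accessory subunit, and Ndufs3, a core subunit of the arm that reaches into the matrix, differed less. Ndufa12 held 30.8 and 26.9 CPM in the controls and 69.8 and 76.3 CPM in the others (1.34 ± 0.12, edgeR adjusted p = 0.000129). Ndufs3 held 48.6 and 43.6 CPM and then 89.4 and 97.5 CPM (1.02 ± 0.12, edgeR adjusted p = 0.000552). Neither gene's groups overlapped.

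The remaining 31 tested complex I subunits had log2 fold changes between −0.19 and 0.30, and 12 were above 0 and 19 below. Ndufv3 and Ndufa9, accessory subunits of the matrix arm, had log2 fold changes of −0.10 ± 0.11 and −0.17 ± 0.11, and neither passed the threshold. With library totals as the scale, Ndufa9 was called lower (−0.41, edgeR adjusted p = 0.0396).

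Ndufs5 could not be tested, since it was listed at 0 counts in all 4 libraries, which allows up to 3 counts each, or 0.0598 to 0.0639 CPM. This bound covers counting error only. Whether reads of Ndufs5 were left uncounted or assigned elsewhere was not tested. Its copy BC002163 held 24 and 36 counts in the controls and 1 and 5 under the knockout label (−3.24 ± 0.67, edgeR adjusted p = 0.0194). That is the opposite direction to the called subunits. The call on BC002163 did not hold without control 1 (adjusted p = 0.0537), control 2 (0.0970) or knockout 1 (0.156).

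In complex III, the cytochrome bc1 complex, 2 of 9 subunits were higher. Uqcrb, a small subunit beside the ubiquinone site, was at 28.2 and 23.3 CPM in the controls and at 84.0 and 91.3 CPM in the others (1.77 ± 0.13, edgeR adjusted p = 2.95e-05). Uqcr11, the smallest subunit, was at 39.8 and 36.6 CPM and then 63.2 and 66.3 CPM (0.76 ± 0.11, edgeR adjusted p = 0.00298). Neither of these genes overlapped between labels.

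The nuclear-encoded catalytic subunits and the core protein Uqcrc1 of complex III did not pass the threshold. Cyc1, the cytochrome c1 subunit, held 194.6, 177.9, 153.7 and 184.4 CPM in control 1, control 2, knockout 1 and knockout 2 (−0.14 ± 0.13). Uqcrfs1, the Rieske iron-sulfur protein, held 230.9, 182.5, 164.6 and 195.8 CPM (−0.20 ± 0.15), and its sign turned without control 1. Uqcrc1 had a log2 fold change of −0.13 ± 0.12. In each of the 3 the ranges of the groups overlapped.

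Complex IV, cytochrome c oxidase, had 4 called subunits among 16 tested. Cox7c, a small membrane subunit, stood at 9.98 and 11.6 CPM in the controls and at 52.1 and 50.8 CPM under the knockout label (2.25 ± 0.14, edgeR adjusted p = 8.01e-06). Cox5b, a zinc-binding subunit of the matrix side, stood at 46.9 and 37.1 CPM and then 155.1 and 157.1 CPM (1.90 ± 0.14, edgeR adjusted p = 2.32e-05). Both were several times higher in each library labelled knockout than in each control.

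Cox7a2l, a Cox7a relative, was at 91.0 and 93.8 CPM against 233.2 and 217.2 CPM (1.29 ± 0.11, edgeR adjusted p = 7.79e-05). Cox6c, a membrane subunit, was at 121.6 and 105.6 CPM against 170.7 and 167.0 CPM (0.57 ± 0.12, edgeR adjusted p = 0.0184). This was the smallest of the 16 called differences. Cox6c no longer passed the threshold without control 2 (adjusted p = 0.0660), without knockout 1 (0.0620) and with library totals as the scale (0.0644).

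Several complex IV subunits exist as isoforms that differ between tissues. The widely expressed Cox4i1, Cox6a1, Cox6b1, Cox7a2 and Cox8a had group means between 143.6 and 376.6 CPM. Cox4i1, the regulatory subunit 4 of most tissues, held 401.3, 352.0, 333.6 and 343.7 CPM in the order given above (−0.15 ± 0.12), and Ndufa4 held 166.0, 145.5, 148.1 and 167.5 CPM (0.019 ± 0.12). The heart and skeletal muscle isoforms Cox6a2 and Cox7a1 and the lung isoform Cox4i2 stayed at or under 2.30 CPM in every library, and Cox8b, another muscle isoform, held 2 counts in control 2 and 0 elsewhere. The testis isoforms Cox7b2 and Cox8c were at 0 in all libraries, and Ndufa4l2, a gene known to be induced by hypoxia, held 1 to 3 counts per library. With edgeR in the unblocked fit over all 4 libraries, none of these isoforms was called, and Cox8a was called under other settings.

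Cox8a, of the widely expressed isoforms, and Cox6b2, the testis counterpart of Cox6b1, depended on single libraries or on the tool. Cox8a held 198.0 and 172.2 CPM in the controls and 260.4 and 242.7 CPM in the others (0.44 ± 0.12, edgeR adjusted p = 0.0764), and it passed the threshold with DESeq2 (0.0193), without control 1 (0.0498) and with the replicate number as a block (0.0332). Cox6b2 held 4.39 CPM in control 1 and 19.3 CPM in control 2, against 21.0 and 15.4 CPM under the knockout label (0.62 ± 0.53, edgeR adjusted p = 0.674). Control 1 alone was low. Without control 2 the log2 fold change was 2.06 (adjusted p = 0.00161), and without control 1 it was −0.057.

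Complex V held the member with the largest log2 fold change among those tested. Atp5g2, for the c subunit of the rotor, had 78 and 99 counts in the controls and 18180 and 18594 under the knockout label, or 1.66 and 1.97 CPM against 386.7 and 382.8 CPM (7.72 ± 0.16, edgeR adjusted p = 4.06e-08). Atp5g1, a further c subunit gene, had 7.79 and 6.44 CPM against 106.2 and 114.6 CPM (3.96 ± 0.14, edgeR adjusted p = 2.73e-07). Atp5g3, the gene without shared coding sequence, had 463.4, 371.1, 348.8 and 391.9 CPM in the same order (−0.17 ± 0.14, edgeR adjusted p = 0.658). The groups of Atp5g3 overlapped and its sign turned without control 1.

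Counts assigned to the 3 c subunit genes were divided differently under the 2 labels. Per kb of coding sequence, Atp5g3 gave 98.0% and 97.7% of the summed CPM of the 3 genes in the controls and 41.9% and 44.5% under the knockout label. Atp5g2 gave 0.339% and 0.502% and then 44.9% and 42.0%, and Atp5g1 gave 1.71% and 1.76% and then 13.2% and 13.5%. The sum over the 3 genes was 1111 and 891.3 CPM per coding kb in the controls and 1954 and 2067 in the others. No test was made of these shares, and those of Atp5g2 and Atp5g1 rest on coding sequence that other loci also hold.

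Atp5l, the g subunit of the membrane part, stood at 5.75 and 6.68 CPM in the controls and at 159.8 and 166.9 CPM in the others (4.72 ± 0.14, edgeR adjusted p = 8.27e-08). Atp5h and Atp5f1, subunits of the stalk that holds the catalytic head in place, were also higher. Atp5h, the d subunit, was at 50.7 and 47.2 CPM against 208.9 and 211.2 CPM (2.10 ± 0.11, edgeR adjusted p = 2.88e-06). Atp5f1, the b subunit, was at 263.5 and 241.5 CPM against 443.5 and 457.7 CPM (0.84 ± 0.12, edgeR adjusted p = 0.00195).

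The catalytic head of the synthase showed no called difference. Atp5b, the catalytic beta subunit, had 2293 and 2072 CPM in the controls and 1743 and 2079 CPM under the knockout label (−0.19 ± 0.15). Atp5a1, the alpha subunit, had 1504 and 1396 CPM and then 1179 and 1418 CPM (−0.16 ± 0.15). Atp5d, the delta subunit of the central stalk, had a log2 fold change of 0.10 ± 0.12. Knockout 1 was the lowest library for both head subunits.

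Cycs had 118 and 80 counts in the controls and 10665 and 13100 under the knockout label, or 2.51 and 1.60 CPM against 226.9 and 269.7 CPM (6.92 ± 0.23, edgeR adjusted p = 1.61e-07). The libraries of each label lay close together beside the gap between the labels.

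**Figure D2:**
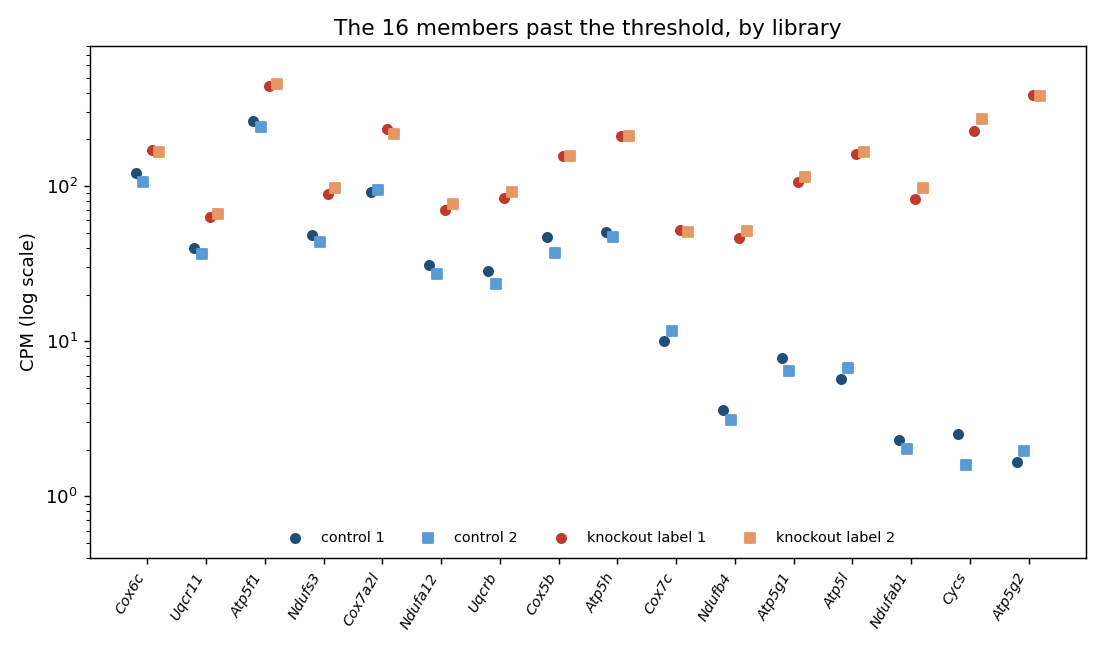
CPM on a log scale of the 16 members past the threshold in each of the 4 libraries, ordered by log2 fold change. In every gene both libraries labelled knockout lie above both controls. In the 6 genes at the right the control libraries lie under 8 CPM, Atp5g1 being the highest there.

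The called members were those with the most shared coding sequence. All 16 shared at least 58.5% of their coding words (Uqcr11), and the 69 tested members that were not called shared at most 46.0% (Ndufs6). Ndufs6 itself, printed above beside its pseudogene, stood at 49.6 and 45.1 CPM against 55.1 and 57.9 CPM (0.25 ± 0.11, edgeR adjusted p = 0.353). A line at 50%, drawn after the values were seen, therefore separated called from uncalled members without exception in this fit. Ndufs5, with 80.8% shared, lay above that line and was untested. DESeq2 called 2 members under it, Cox8a and Atp5o (0.39, adjusted p = 0.0347).

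The size of the difference was graded as well. Members with all coding words shared (7 tested) had a median log2 fold change of 4.72, those sharing over 75% (5 tested) 1.77, and those sharing over 50% and up to 75% (4 tested) 0.80. Below the line the medians were 0.19 for over 25% to 50% (12 tested), 0.09 for over 10% to 25% (8 tested), −0.045 for up to 10% (16 tested) and −0.097 for none (33 tested). Spearman's rho between shared coding sequence and log2 fold change was 0.72 across the 85 tested members, which are not independent, since they come from the same 4 libraries.

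**Figure D3:**
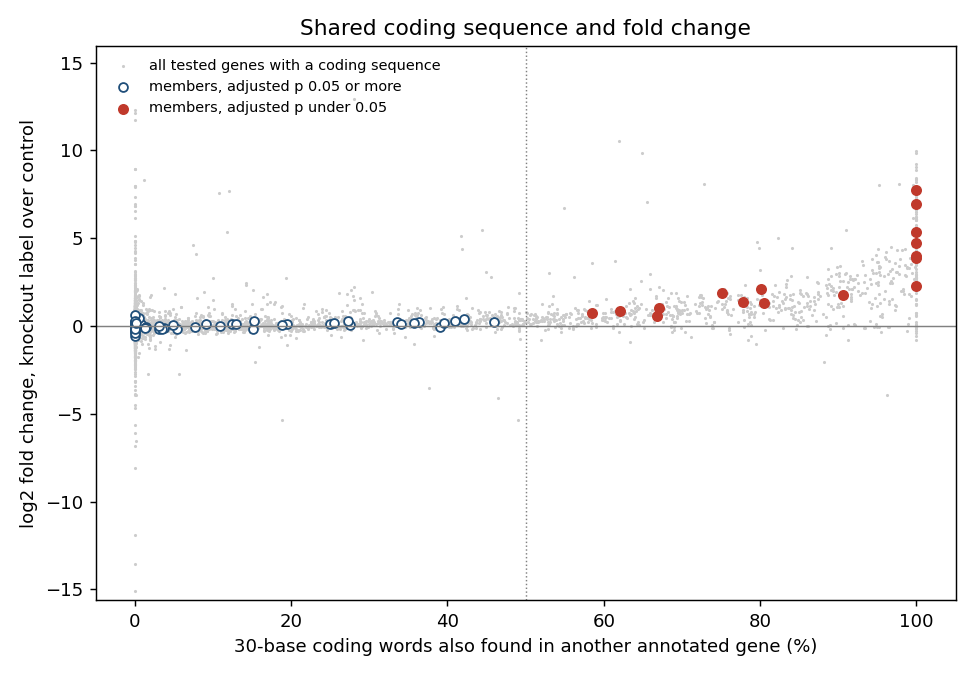
Shared coding sequence (percent of 30-base words also found in another annotated gene) against log2 fold change, knockout label over control. Members past the threshold are red, other tested members open, and all tested genes with a coding sequence grey. All red points lie right of the dotted line at 50% and all open points left of it.

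The same gradient ran over all tested genes. Of the 12758 genes tested, 12049 had an annotated coding sequence. Among those sharing at least 50% of it, 65.7% of 743 were called higher and 0.404% lower, and among those under 50% 1.91% of 11306 were called higher and 0.681% lower. Genes sharing all coding words had a median log2 fold change of 3.95 (107 tested), against 4.72 for the members in that class. Set against these shares, 16 of 16 tested members were called above the line and 0 of 69 below it. The sources used here do not say how reads that fit several places were counted or whether both groups were treated alike, and this was not tested.

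**Figure D4:**
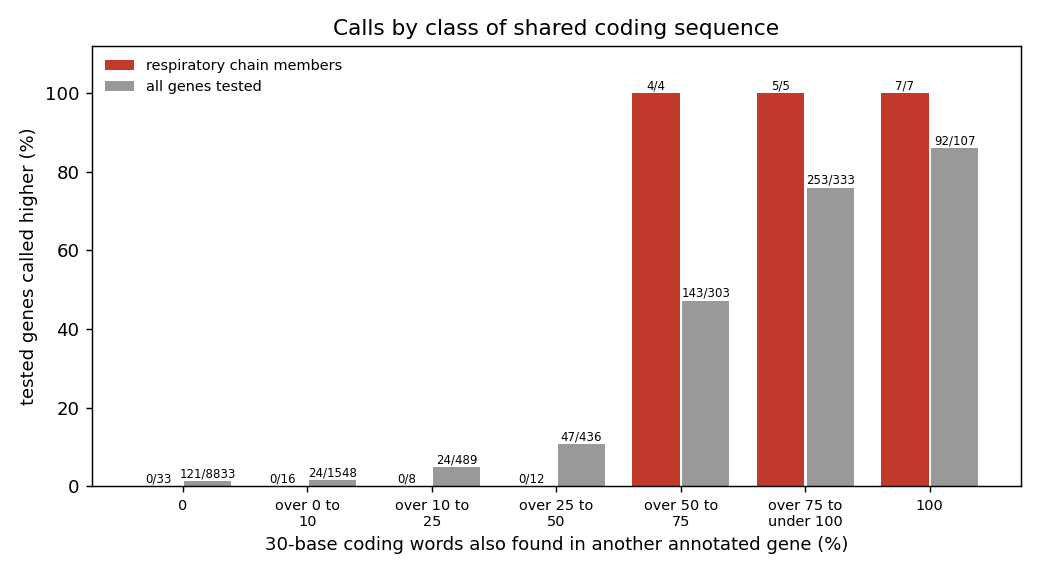
Percent of tested genes called higher under the knockout label, by class of shared coding sequence, for the members (red) and for all tested genes (grey), with called over tested above each bar. Grey bars climb from 1.37% at no shared word to 86.0% at full sharing, and red bars stand at 0 up to 50% and at 100% above.

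Most of the copies themselves had no entry under their GENCODE symbol in the table, so their counts are not known. Over the 17 members above the line, 27 other loci each held at least 50% of a member's coding words, and 25 of these were annotated as pseudogenes. Only BC002163 and Gm10012 had entries under these symbols. Whether the unnamed entries, which had values in the controls alone, hold counts of other copies was not tested. Gm10012 (chr17:25901856-25902227, plus strand) holds 63.2% of the coding words of Cox7c and had 2 and 6 counts in the controls and 15 and 15 under the knockout label. Cycs had 3 such loci, Ndufab1 2 and Atp5l 5.

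Per length of transcript, subunits of 1 complex lay closer together under the knockout label. Levels were set as CPM per kb of the principal GENCODE transcript, and the tissue isoforms Cox4i2, Cox6a2, Cox6b2 and Cox7a1 were left out. The SD of log2 CPM per kb over the 15 complex V subunits was 2.85 and 2.78 in the controls and 1.21 and 1.25 in the others. Over 35 complex I subunits it was 1.69 and 1.72 against 0.96 and 0.90, over 12 complex IV subunits 1.41 and 1.32 against 0.69 and 0.69, and over 9 complex III subunits 0.82 and 0.86 against 0.63 and 0.58.

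Subunits under the 50% line differed less in spread between labels in complexes I, IV and V. In complex I their SD was 0.93, 0.95, 0.95 and 0.89 in control 1, control 2, knockout 1 and knockout 2, and in complex V 1.05, 1.04, 0.85 and 0.95. In complex IV it was 0.58, 0.55, 0.59 and 0.55. In complex III it was 0.57, 0.62, 0.73 and 0.66, so there the spread was larger under the knockout label. In the control libraries the lowest complex I subunit per kb was Ndufab1, at 0.667 and 0.584 CPM per kb beside a median of 103.2 and 96.2. The lowest of complex V was Atp5g1, at 1.65 and 1.37 CPM per kb beside a median of 198.8 and 175.3, but per kb of coding sequence Atp5g2 lay lower, at 3.76 and 4.47 against 19.0 and 15.7 for Atp5g1. These values depend on the length chosen, and no test was made. Per kb of coding sequence alone, the SD over complex V subunits was 2.50 and 2.41 in the controls and 0.61 and 0.63 in the others. Over complex I subunits it was 1.26 and 1.28 against 0.61 and 0.53, and over complex IV subunits 1.26 and 1.18 against 0.54 and 0.52. Over complex III subunits it was 0.96 and 0.95 against 0.74 and 0.65.

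**Figure D5:**
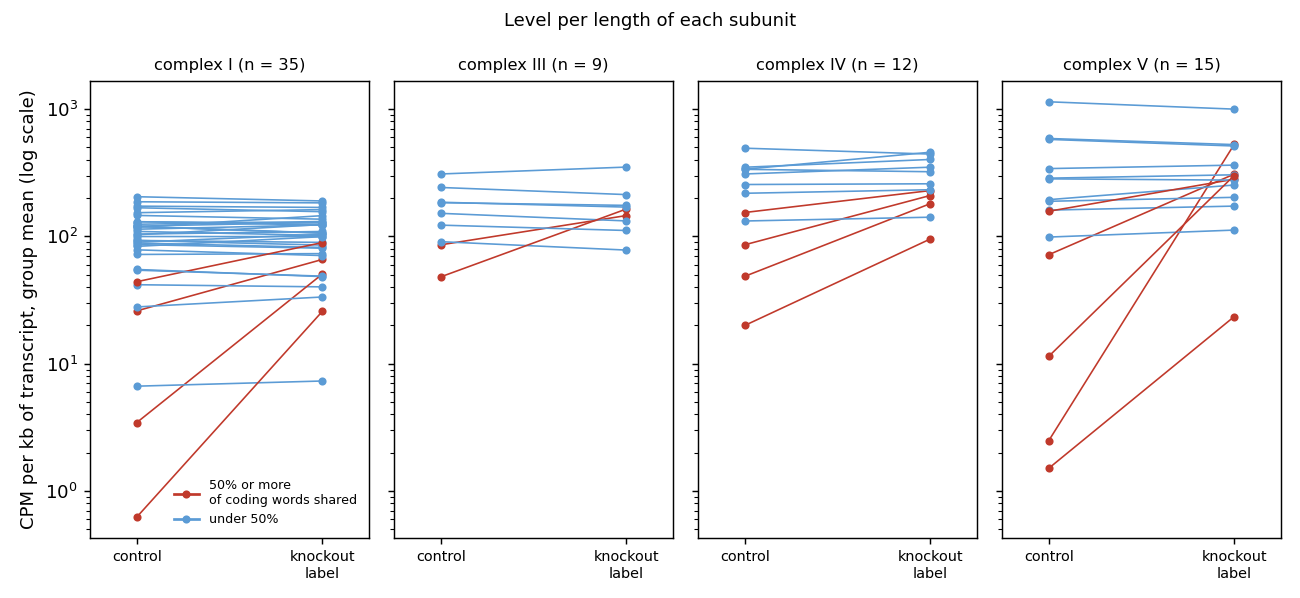
Group mean level of each subunit as CPM per kb of transcript on a log scale, control beside knockout label, for complexes I, III, IV and V without the isoforms Cox4i2, Cox6a2, Cox6b2 and Cox7a1. Every line of a subunit with at least 50% shared coding sequence (red) rises, steeply for Atp5g2 and Ndufab1, and Atp5g1 and Cox7c still end below the other subunits (blue) of their complex, which run nearly level.

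The members as a whole took 1.39% and 1.29% of the counts of named genes in the controls and 1.25% and 1.30% in the others. Those above the 50% line took 0.0812% and 0.0755% and then 0.240% and 0.243%, and those below it 1.31% and 1.21% and then 1.01% and 1.06%. These shares are of raw counts, without the TMM scaling used for CPM and the fits. With library totals as the scale, the median log2 fold change over all genes moved from −0.021 to −0.26. On the TMM scale the median of the tested members below the line was −0.0024.

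A further view used what are called single-copy genes here. These had at most 5% of all transcript words shared and at most 10% of exonic bases overlapped by another gene. The first limit is on the whole transcript, so such genes can still share coding words, as Atp5j2 did (39.5%). Of the 90 members, 49 met these limits and 45 of them were tested. Fitted among the 9095 single-copy genes alone, where edgeR called 0.682% higher and 0.0990% lower, 0 of the 45 passed the threshold, 1 had an unadjusted p under 0.05 and DESeq2 called 1. The lowest edgeR adjusted p was 0.238, for Cox8a. Their median log2 fold change was −0.020, beside −0.0022 over all genes of that fit, with 21 above 0 and 24 below.

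Genes of the pathway outside the member list were counted in the fit over all 12758 genes. Of 98 genes listed, 80 were in the table and 77 were tested, of which 5 (6.49%) were higher and 1 was lower, beside 6.00% higher and 0.752% lower over all genes. The share called higher was thus near that of all genes. Complex II had 0 of 4 called, complex I assembly 0 of 8, complex III assembly 0 of 3, and coenzyme Q with electron transfer 0 of 17. ATP synthase assembly and regulation had 2 of 7 called, both higher, regulators of mitochondrial genes 1 of 11, carriers and porins 2 of 6, and complex IV assembly 1 of 21, lower. Of the 13 mitochondrially encoded subunits listed, 0 were matched to an entry of the deposited table by symbol or synonym, so they were not analysed here.

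The 5 higher genes all shared at least 80.0% of their coding words (Atpaf1). Atpaf1, an assembly factor of the ATP synthase head, was at 2.81 and 2.85 CPM against 22.8 and 27.9 CPM (3.16 ± 0.19, edgeR adjusted p = 6.85e-06). Tfb2m, a mitochondrial transcription factor, had a log2 fold change of 2.65 ± 0.17, and Vdac3, a porin of the outer membrane, 2.19 ± 0.12. Usmg5, a small ATP synthase-associated protein, had 1.68 ± 0.12 and Slc25a5, an ADP/ATP carrier, 1.12 ± 0.17. Of the 72 tested pathway genes under the 50% line, 0 were higher in edgeR, beside 1.91% of all such genes.

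Cox16, an assembly factor of complex IV, fell from 34.2 and 29.3 CPM to 8.23 and 7.60 CPM (−2.0 ± 0.16, edgeR adjusted p = 4.91e-05). It shares 0% of its coding words, and 56.8% of its exonic bases are overlapped by another gene, so its reads may not be separable from that gene's. Tfam, which packages and transcribes mitochondrial DNA, had a log2 fold change of −0.19 ± 0.11 and Nrf1, a transcription factor of respiratory genes, −0.12 ± 0.12, and neither passed the threshold. With library totals as the scale, Tfam was called lower (−0.43, edgeR adjusted p = 0.0336). Ppargc1a, a coactivator of mitochondrial biogenesis, held 0, 2, 8 and 8 counts in control 1, control 2, knockout 1 and knockout 2 and was too low to test.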

How the data were processed

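Raw counts per gene, as whole numbers, were deposited by the authors in 1 table with a column per library. Build GRCm38 and the tools DESeq2 1.14.1, HTSeq 0.6.1p1, TopHat2 2.0.13 and cutadapt 1.11 are listed, without roles, per the submitters' processing notes, while annotation, strand setting and handling of reads that fit several places are not given in the sources used here. Of 23419 entries, 22672 carried a gene name. Left out were 27 date-named entries (0.261% to 0.312% of counts) and 720 unnamed ones, which had no value under the knockout label and 1.13% and 1.17% of control counts. Symbols matched GENCODE M21 directly for 21753 genes and by synonym for 628, and 291 were not matched.

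Genes were tested with edgeR 4.0.16 in R 4.3.3 (TMM scaling, a filterByExpr minimum of 10 counts, the quasi-likelihood F test, and a threshold of 0.05 on Benjamini-Hochberg adjusted p), with 2 libraries per label. DESeq2 1.42.0 and limma 3.58.1 (voom) were alternatives. SE is the absolute log2 fold change over the square root of F, and CPM uses TMM-scaled library sizes. A floor of 3 counts covers counting error only. The fit was tested on simulated data. It called 86% of 100 genes changed by an absolute log2 fold change of 1 and 99% of 100 changed by 2. There were 8 false calls, and smaller changes were not simulated. The replicate numbers did not pair the libraries (correlation of deviations −0.037).

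Members, lists and tests were chosen with earlier results of these data known, and the shared coding sequence with its 50% line was added after values were seen. Named with values were, per complex, called members by size of change, the most abundant single-copy members, isoform sets, members at 0 throughout and called genes of the other lists. Atp5b, Ndufs6 and Atp5o were added after their values were seen. A gene that this rule names is not reported here.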

Additional observations from a re-analysis of the deposited data

How the results depend on the processing

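All 16 higher calls held with DESeq2 size factors, DESeq2, limma-voom, robust fitting, both other count filters, the replicate block, and without control 1 or knockout 2. With library totals, without control 2 and without knockout 1, Cox6c was lost and the other 15 held. Library totals moved the median over all genes from −0.021 to −0.26 and called 9 members and 10 other pathway genes lower, 8 of these members single-copy; the cause was not tested. By that shift small positive values turn negative, among the named genes Ndufa4 (−0.22), Atp5d (−0.13), Cox6a1 (−0.035) and Cox7a2 (−0.15). The fit on single-copy genes holds none of the 16, so it gave 0 for the members and for complexes I, III, IV and V. DESeq2 called 1 single-copy member and 2 members under the 50% line. With the replicate block, 1 single-copy member (Cox8a) was called, also 1 under the line, and no other member's call changed. Leaving out 1 library gave between 0 and 1 calls among single-copy members in the fit over all genes and among members under the line, 0 to 2 in the single-copy fit, and 1 to 2 lower pathway genes (Cox16, and Hccs without control 2). Leaving out single libraries turned the sign of uncalled log2 fold changes, which then ranged from −0.35 to 0.011 for Uqcrfs1, −0.15 to 0.069 for Cox6b1, −0.32 to 0.027 for Atp5g3 and −0.057 to 2.06 for Cox6b2 (control 1), from −0.77 to 0.14 for Cox6a2 and −0.015 to 0.65 for Cox7a1 (control 2), and from −0.074 to 0.15 for Ndufa4 (control 2 or knockout 2). Single-copy limits by words found elsewhere in the genome were not run.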
